A study of Mus musculus with 12 samples.

Results

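A set of 7 ligand genes was followed through the count table of sorted muscle progenitors: the neurotrophin Ntf3, the glial factor Gdnf, the hepatocyte growth factor Hgf, the fibroblast growth factors Fgf2, Fgf7 and Fgf10, and the neuregulin Nrg1. They were taken by gene symbol, and all 7 were found among the 54100 genes of the table. Of these, 4 (Ntf3, Fgf2, Fgf7 and Nrg1) had enough counts to be tested, and 3 (Gdnf, Hgf and Fgf10) did not and are described by their counts.

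The cells were Pdgfra-positive mesenchymal (fibro-adipogenic) progenitors of the mouse plantaris, a calf muscle that takes up added work in overload models. There were 12 libraries, 3 in each of 4 groups: cdKO overload, cdKO sham, control overload and control sham. The cdKO mice carried Pdgfra-CreERT2, a tamoxifen-dependent Cre under the Pdgfra promoter, with floxed alleles of both Yap1 and Taz (gene symbol Wwtr1), and the control mice carried Pdgfra-CreERT2 alone, so that all groups shared the driver. Yap1 and Taz encode the co-activators at the end of the Hippo pathway. The sources used here do not give the age and sex of the mice, how long overload lasted or whether animals were pooled, so the p-values below measure only how far these libraries spread, and that spread may be partly technical.

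Progenitors of this kind surround nerve endings and muscle fibres and secrete growth factors that act on neighbouring cells. Neurotrophin-3, the product of Ntf3, is the ligand of TrkC and is needed by the proprioceptive sensory neurons that supply muscle spindles, and GDNF signals through RET and GFRA1 and sustains motor neurons. HGF acts on MET and wakes muscle stem cells, FGF2 is a heparan-sulphate-bound mitogen for many cell types, FGF7 and FGF10 signal from mesenchyme to epithelium through a splice form of FGFR2, and neuregulin-1 acts on ErbB receptors of Schwann cells and at the neuromuscular junction.

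The RefSeq table of start regions (GRCm38.p6) held windows for 6 of the 7 genes, 9 windows in all. For both Gdnf windows, the bases after the listed start were found in no annotated Gdnf transcript, unlike those of the other genes with windows. The 250 bases before a start are printed for 3 of them, because Ntf3 and Fgf10 were the members with fewer counts under overload and Fgf7 is an FGF of the same kind that passed in no comparison. The Ntf3 stretch lies before the downstream of its 2 listed starts, at chr6:126164961-126165210 on the minus strand. The Fgf10 stretch is chr13:118714449-118714698 and the Fgf7 stretch is chr2:126034408-126034657, both on the plus strand. Capitals mark a GC box (GGGCGG on either strand).
Ntf3: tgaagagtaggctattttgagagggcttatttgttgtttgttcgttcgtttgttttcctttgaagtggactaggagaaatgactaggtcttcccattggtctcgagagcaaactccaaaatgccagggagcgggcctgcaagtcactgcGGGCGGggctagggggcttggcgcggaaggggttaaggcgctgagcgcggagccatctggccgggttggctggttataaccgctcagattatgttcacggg
Fgf10: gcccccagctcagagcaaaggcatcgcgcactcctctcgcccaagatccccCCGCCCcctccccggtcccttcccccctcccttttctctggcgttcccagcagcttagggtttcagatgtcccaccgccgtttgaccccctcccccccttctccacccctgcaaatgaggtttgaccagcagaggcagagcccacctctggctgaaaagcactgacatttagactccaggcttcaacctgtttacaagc
Fgf7: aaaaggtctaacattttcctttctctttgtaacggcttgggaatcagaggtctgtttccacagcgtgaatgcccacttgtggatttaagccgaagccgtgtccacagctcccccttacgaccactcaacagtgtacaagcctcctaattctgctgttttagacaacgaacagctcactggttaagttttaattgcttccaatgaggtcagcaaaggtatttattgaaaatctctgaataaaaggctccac
A GC box lay at positions -101 to -96 from the Ntf3 start and, on the opposite strand, at -199 to -194 from the Fgf10 start, and none was found in the Fgf7 window. The same Ntf3 window held a second box after the start (44 to 49, opposite strand), the window of the other Ntf3 start held one at -45 to -40, and that of Fgf2, which rose, held one at -49 to -44, so boxes were found in members that were lower and in one that was higher. GC boxes were found in 35.7% of 32851 start windows of the table (250 bases before to 50 after a start, both strands), and they were searched for after the windows had been seen. None of the 9 windows held GGAATG, the core of the TEAD element to which YAP and TAZ are recruited (14.7% of all windows), TGANTCA, the AP-1 element (7.81%), or TGACGTCA, the cyclic AMP element (1.79%). These counts describe letters in short windows and say nothing of whether a factor binds.

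Library totals ran from 336437 to 1564581 counts, so 1 count was worth 0.649 to 3.24 CPM (depth-scaled counts, from library sizes over the 8161 genes tested and TMM factors). Wwtr1 was at 18.2 to 40.6 CPM in the 6 cdKO libraries, against 108 to 174 CPM in the 6 control libraries, with no overlap, whereas Yap1 overlapped under overload, at 22.1 to 40.2 CPM in cdKO and 39.7 to 91.3 CPM in control. The deleted exons are not given, so counts near the 3′ end need not report the deletion. The 6 progenitor markers (Pdgfra, Ly6a, Cd34, Dcn, Pi16, Dpep1) were detected in all groups. Their sum was 6513 to 13055 CPM under overload, against 20006 to 36320 CPM in sham, and Dcn made up most of it (means of 7771 CPM in cdKO overload, 21803 CPM in cdKO sham, 5241 CPM in control overload and 26249 CPM in control sham). Dcn, Pi16 and Dpep1 fell in both genotypes, Pdgfra in cdKO and Cd34 in control, whereas Pdgfra in control, Cd34 in cdKO and Ly6a in both did not pass (Ly6a at 0.16 ± 0.25 on the log2 scale in cdKO and -0.41 ± 0.26 in control). Of the other cells in the muscle, endothelial markers summed to 38.2 to 61.1 CPM in cdKO overload and 82.5 to 187 CPM in cdKO sham. In control they summed to 21.4 to 96.5 CPM under overload and 108 to 189 CPM in sham, without overlap in either genotype. Among the 5 tested, Tek and Tie1 fell in cdKO, where 6.68% of all tested genes fell, and Tek in control, where 11% fell. Tie1 was above 13.5 CPM in sham libraries only, so it was tested through the load in which it was high. Schwann cell markers summed to 1.95 to 34.5 CPM under overload and 12.5 to 32.9 CPM in sham. Pericyte and smooth muscle markers summed to 75.2 to 85.0 CPM in cdKO overload and 93.5 to 141 CPM in cdKO sham, without overlap. In control they overlapped, at 67.7 to 103 CPM under overload and 101 to 123 CPM in sham. Myofibre markers summed to 11.7 to 82.7 CPM under overload and 54.1 to 143 CPM in sham. Muscle stem cell, myeloid, lymphocyte and tendon markers each summed to at most 75.8 CPM in any library, with sums whose ranges overlapped between loads. Within the tendon list, Scx was at 10.8 to 19.1 CPM in cdKO overload and 3.12 to 5.80 CPM in cdKO sham. It was at 7.79 to 12.8 CPM in control overload and 0 to 4.50 CPM in control sham, and was under the filter and not tested. Tnmd, Mkx and Fmod, also of that list, overlapped between loads in both genotypes. Each group held counts for all 8 endothelial markers and for 5 to 7 of the 8 Schwann markers, and no marker of either list was at 0 in all libraries. The part of these cells in the differences below was not tested. On the first principal component of log2 CPM, which held 46.4% of the variance and placed all sham libraries below zero, cdKO overload replicate 2 (score 7.39) and control overload replicate 1 (15.8) lay nearest the sham libraries, whereas the other overload libraries scored 32.6 to 61.1. Y-linked genes summed to 72.7 and 88.7 CPM in control overload replicates 2 and 3, against 131 to 337 CPM in the other libraries.

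Ntf3 was lower and Fgf2 higher in overloaded than in sham progenitors, in both genotypes. In cdKO these were 2 calls among the 4 tested members at an adjusted p under 0.05 (edgeR's quasi-likelihood test with Benjamini-Hochberg adjustment over all genes tested), where 13% of all tested genes were called, 6.37% higher and 6.68% lower. In control progenitors the same 2 members were called, where 21.7% of all tested genes were called, 10.6% higher and 11% lower. Between cdKO and control none of the 4 passed under either load, where 0.0368% of genes were called under overload (3 genes) and 0.0123% in sham (1 gene). For the interaction, which asks whether the overload effect differed between genotypes, 0 genes (0%) were called, 427 genes had an unadjusted p under 0.05, DESeq2 called 1 gene and limma voom 0. In bulk RNA, fewer cells of a type and less RNA per cell cannot be told apart.

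**Figure D1:**
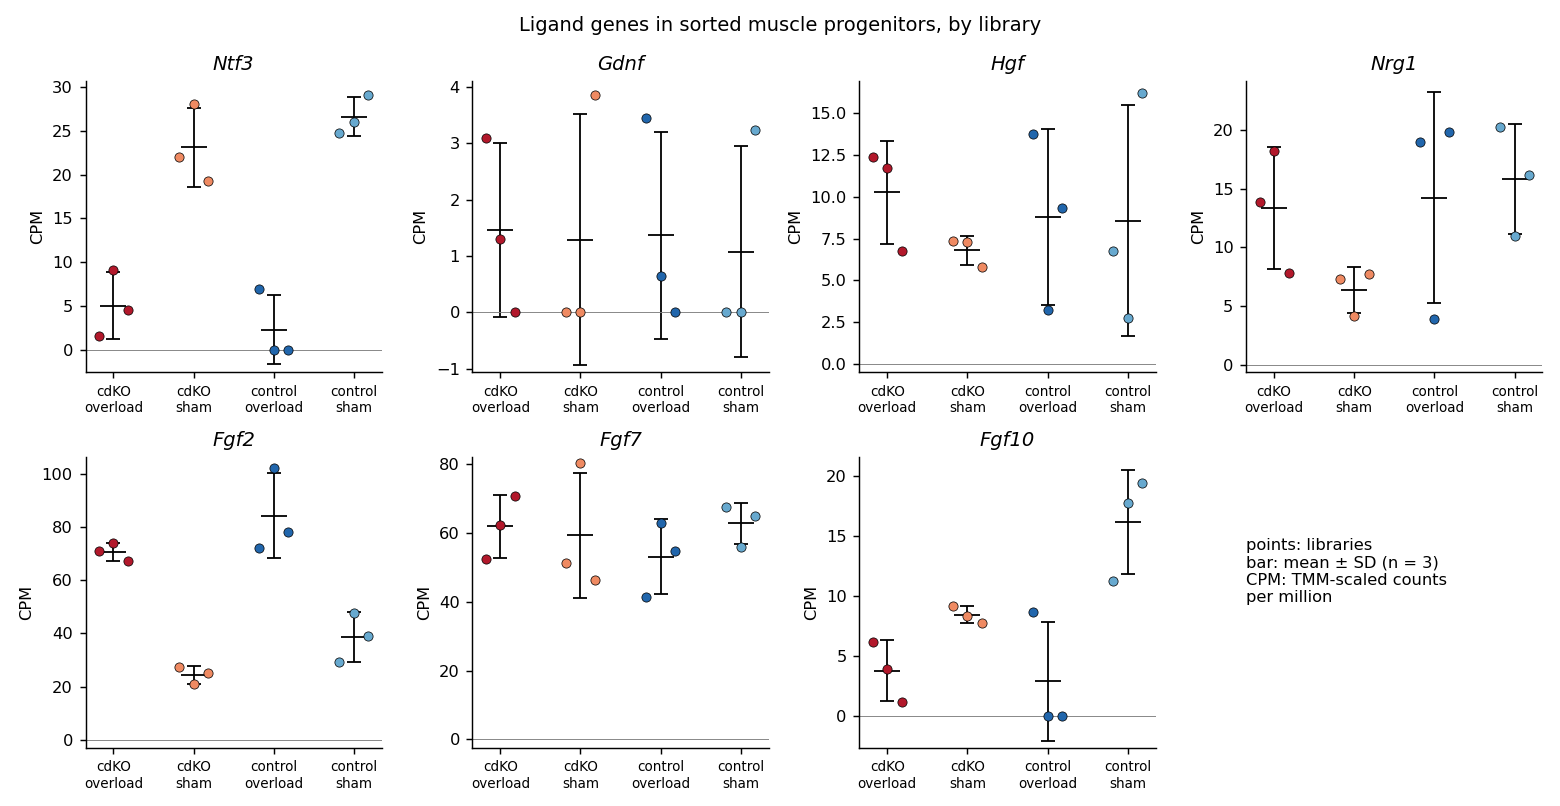
CPM of the 7 ligand genes in each library (points), with the mean and SD of each group (bars, n = 3), for cdKO overload, cdKO sham, control overload and control sham. Ntf3 was under 10 CPM in every overload library and above 19 CPM in every sham library, Fgf2 was above 67 CPM in every overload library and under 48 CPM in every sham library, and Fgf7 overlapped between all groups.

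Ntf3 lies on chromosome 6 (GRCm38, 126101412 to 126166910, minus strand). The cdKO overload libraries held 1, 7 and 4 Ntf3 counts, against 12, 27 and 10 counts in cdKO sham. The control overload libraries held 4, 0 and 0 counts, against 11, 19 and 9 counts in control sham. No overload library reached the lowest sham library of either genotype, whether in counts or in CPM. As levels, these were 5.05 ± 3.81 CPM in cdKO overload, 23.1 ± 4.50 CPM in cdKO sham, 2.30 ± 3.98 CPM in control overload and 26.6 ± 2.27 CPM in control sham (SD, n = 3 each). The log2 fold change was -2.15 ± 0.68 (SE) in cdKO (edgeR adjusted p = 0.0357) and -4.01 ± 0.81 in control (edgeR adjusted p = 9.66e-04). Scaled to library size, the summed counts were 4.66-fold lower under overload in cdKO (exact 95% counting interval 2.44 to 9.62) and 19.6-fold lower in control (7.06 to 75.4), and these intervals cover counting error only. The filter on low counts asked for at least 13.5 CPM in 3 libraries, and Ntf3 met it in the 6 sham libraries and in no overload library, so it was tested on the strength of the group in which it was high.

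Within each overload group, Ntf3 was highest in the library whose principal component score lay closest to the sham libraries. Control overload replicate 1 held all 4 counts of its group (6.89 CPM), and cdKO overload replicate 2 had the highest level of its group (9.10 CPM, against 1.54 and 4.49 CPM). Without control overload replicate 1 both other libraries of that group were at 0 counts, and the fitted log2 fold change, -7.30, then depends on the prior count and is no bound. Without control overload replicate 2 it was -3.08, and without that library and control sham replicate 3 together -3.03, with adjusted p = 0.0221. In cdKO the value was -2.78 without cdKO overload replicate 2. The cdKO call was lost when one of 5 libraries was left out: cdKO overload replicate 1 (edgeR adjusted p = 0.137), cdKO overload replicate 3 (0.129), cdKO sham replicate 1 (0.0599), cdKO sham replicate 2 (0.133) or control sham replicate 2 (0.0585).

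Under overload the fitted Ntf3 level was higher in cdKO than in control by 1.69 ± 0.94 on the log2 scale, a difference that did not pass (edgeR adjusted p = 0.781) and has a 95% interval of -0.25 to 3.62. The levels of the 2 genotypes overlapped under overload, since the control library with 4 counts was above 2 of the cdKO libraries. In sham muscle the difference was -0.17 ± 0.59 (interval -1.40 to 1.05). The interaction was 1.86 ± 1.10 (interval -0.41 to 4.13, edgeR adjusted p = 0.94), so the steeper fold change in control was not shown to differ from that in cdKO. In the order of mean levels, control sham and cdKO sham stood first and did not differ beyond their spread, and cdKO overload and control overload followed and did not differ beyond theirs.

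Gdnf, on chromosome 15 (7810846 to 7837575, plus strand), was close to the detection limit throughout. The libraries held 2, 1 and 0 Gdnf counts in cdKO overload, 0, 0 and 2 in cdKO sham, 2, 1 and 0 in control overload, and 0, 0 and 1 in control sham, a total of 9 counts in the study. Every group thus had a library at 0, and no value exceeded 3.87 CPM. The mean difference of overload minus sham was 0.23 CPM (exact permutation test within genotype, two-sided, p = 0.77) and that of cdKO minus control was 0.15 CPM (exact permutation p = 0.86). A change of Gdnf was not detectable at this depth.

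Hgf, on chromosome 5 (16553495 to 16620152, plus strand), was also under the filter but was counted in all 12 libraries. It had 8, 9 and 6 counts in cdKO overload, against 4, 7 and 3 in cdKO sham. It had 8, 5 and 8 counts in control overload, against 3, 2 and 5 in control sham, of which the last came from the shallowest library. Scaled for depth, Hgf was at 9.53 ± 3.95 CPM under overload and 7.68 ± 4.51 CPM in sham (SD, n = 6 each), which overlapped widely (difference 1.84 CPM, exact permutation p = 0.5). The genotypes were at 8.54 ± 2.77 CPM in cdKO and 8.68 ± 5.51 CPM in control (difference -0.14 CPM, exact permutation p = 0.975). A model of unknown type, Gm43489, overlaps Hgf on the same strand and held 0 to 9 counts per library, so the division of reads between them is uncertain.

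Fgf2, on chromosome 3 (37348346 to 37410108, plus strand), had 46, 57 and 60 counts in cdKO overload, against 15, 20 and 13 in cdKO sham. It had 42, 158 and 67 counts in control overload, against 13, 35 and 12 in control sham. The overload libraries were above the sham libraries in both genotypes without overlap, and the scaled levels were 70.8 ± 3.38 CPM in cdKO overload, 24.5 ± 3.38 CPM in cdKO sham, 84.4 ± 16.0 CPM in control overload and 38.7 ± 9.29 CPM in control sham (SD, n = 3 each). Fgf2 rose by 1.55 ± 0.29 on the log2 scale in cdKO (edgeR adjusted p = 0.00104) and by 1.11 ± 0.28 in control (edgeR adjusted p = 0.00565). The cdKO call stayed with each library left out (highest adjusted p = 0.0152), and so did the control call (highest 0.0444), but the control call was lost with control overload replicate 2 and control sham replicate 3 both left out (0.95, adjusted p = 0.0984) and with a covariate for Y-linked counts (1.05, adjusted p = 0.0597). Both libraries with low Y-linked counts were in control overload, so that the Y-linked level and load cannot be told apart in 2 of its 3 libraries.

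The cdKO sham libraries were the lowest in Fgf2, at 20.8 to 27.5 CPM, just under the 29.3 to 47.8 CPM of control sham. That difference, -0.71 ± 0.32 on the log2 scale, had an unadjusted p of 0.0376 and did not pass over all genes (edgeR adjusted p = 0.999). Under overload cdKO and control differed by -0.27 ± 0.25 (interval -0.79 to 0.25), and the interaction was 0.44 ± 0.41 (edgeR adjusted p = 0.967). Genes that share the Fgf2 locus held few counts: the opposite-strand neighbour Nudt6 had 0 or 1 per library and the antisense gene Fgf2os 0 to 6.

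Fgf7, on chromosome 2 (126034658 to 126091185, plus strand), passed in no comparison. It had 34, 48 and 63 counts in cdKO overload, against 28, 77 and 24 in cdKO sham. It had 24, 97 and 47 counts in control overload, against 30, 41 and 20 in control sham. After scaling, all groups overlapped, with means of 61.9 ± 9.11, 59.3 ± 18.2, 53.1 ± 10.9 and 62.8 ± 6.01 CPM in cdKO overload, cdKO sham, control overload and control sham (SD, n = 3 each). The overload difference was 0.04 ± 0.28 on the log2 scale in cdKO (95% interval -0.53 to 0.60) and -0.20 ± 0.29 in control (-0.79 to 0.38). The genotype differences were 0.20 ± 0.27 under overload and -0.04 ± 0.29 in sham.

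Fgf10, on chromosome 13 (118669791 to 118792115, plus strand), also had fewer counts under overload. The cdKO overload libraries held 4, 3 and 1 counts, against 5, 8 and 4 in cdKO sham, and the control overload libraries 5, 0 and 0, against 5, 13 and 6 in control sham. In CPM no overload library reached a sham library of its genotype, although control overload replicate 1, at 8.61 CPM, lay within the range of the cdKO sham libraries (7.73 to 9.17 CPM). Over both genotypes Fgf10 was at 3.30 ± 3.56 CPM under overload and 12.3 ± 5.07 CPM in sham (SD, n = 6 each). The difference of -8.98 CPM had an exact permutation p of 0.005 (two-sided, load permuted within genotype), the smallest that the 400 arrangements can give, and this was 1 of 6 such tests, on the 3 members under the filter.

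Within control, Fgf10 summed to 5 counts under overload and 24 in sham, a 9.63-fold lower scaled count (counting interval 3.60 to 32.3), and within cdKO to 8 and 17 counts, 2.42-fold lower (0.99 to 6.49). With no filter on low counts, the control difference passed at a log2 fold change of -2.78 ± 0.86 (edgeR adjusted p = 0.0384), where 1.52% of 37990 genes were called lower, and the cdKO difference did not (-1.15 ± 0.83, edgeR adjusted p = 0.78). All Fgf10 counts of control overload came from replicate 1, as for Ntf3. The genotype difference over both loads, 6.07 ± 3.05 CPM in cdKO and 9.51 ± 8.39 CPM in control, had an exact permutation p of 0.19.

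Nrg1, on chromosome 8 (31814551 to 32884029, minus strand), had 9, 14 and 7 counts in cdKO overload, against 4, 4 and 4 in cdKO sham. It had 11, 6 and 17 counts in control overload, against 9, 8 and 5 in control sham. The cdKO sham libraries were thus the lowest group, at 6.41 ± 1.95 CPM, against 13.3 ± 5.20 CPM in cdKO overload, 14.2 ± 8.96 CPM in control overload and 15.8 ± 4.68 CPM in control sham (SD, n = 3 each). The overload over sham difference in cdKO was 1.09 ± 0.67 on the log2 scale (edgeR adjusted p = 0.313). The cdKO over control difference in sham was -1.31 ± 0.70 (edgeR adjusted p = 0.999), and neither difference passed. Control overload spanned 3.89 to 19.8 CPM and covered the range of most other libraries. The 95% interval of the cdKO overload difference, -0.30 to 2.47, and that of the interaction, -0.59 to 3.18, are wide at these counts.

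**Figure D2:**
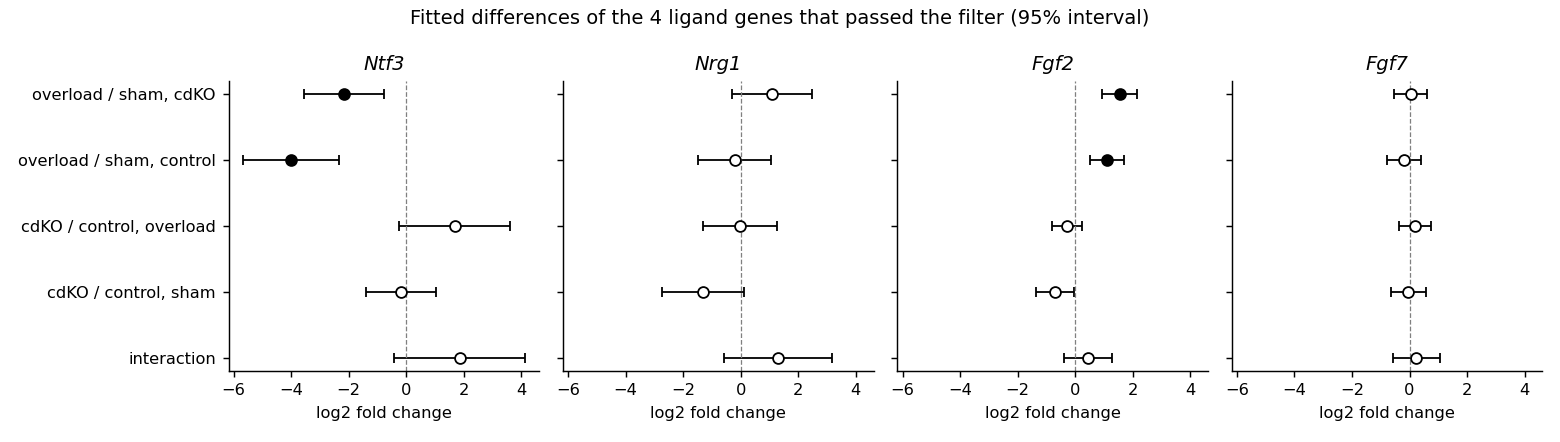
Log2 fold changes with 95% intervals for Ntf3, Nrg1, Fgf2 and Fgf7 in the 5 comparisons (filled points passed at an adjusted p under 0.05). Ntf3 lies left of zero and Fgf2 right of zero in both overload comparisons, whereas the genotype and interaction points are all open.

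Of the other neurotrophin and GDNF family ligand genes compared here, 5 in number, 1 (Bdnf) was tested. Bdnf, which encodes a TrkB ligand, was at 39.2 ± 4.08 CPM in cdKO overload, 14.9 ± 11.1 CPM in cdKO sham, 25.3 ± 5.36 CPM in control overload and 15.3 ± 6.55 CPM in control sham (SD, n = 3 each). It rose in cdKO (1.53 ± 0.46 on the log2 scale, edgeR adjusted p = 0.0276), where Ntf3 fell, and was at 0.70 ± 0.48 in control (edgeR adjusted p = 0.316). The interaction did not pass (0.84 ± 0.68, edgeR adjusted p = 0.956).

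Of 10 neurotrophin and GDNF receptor genes compared here, 7 were tested, 0 rose, and 1 fell in cdKO and 2 in control for overload. Among all tested genes 6.68% fell in cdKO and 11% in control, and 13% and 21.7% were called in either direction. With 7 genes tested, nothing particular to the receptors is read from these counts. Ngfr, the low-affinity receptor p75 shared by all neurotrophins, was at 10.8, 18.2 and 6.74 CPM in cdKO overload, against 53.2, 72.9 and 40.6 CPM in cdKO sham. It was at 10.3, 5.19 and 0 CPM in control overload, against 31.5, 15.0 and 6.48 CPM in control sham, where the groups overlapped. Ngfr fell by 2.24 on the log2 scale in cdKO (SE 0.51, edgeR adjusted p = 0.00575) and by 1.90 in control (SE 0.66, edgeR adjusted p = 0.0431). Ntrk2, which encodes TrkB, fell by 1.23 in control (SE 0.34, edgeR adjusted p = 0.0122) and was at -0.87 ± 0.32 in cdKO (edgeR adjusted p = 0.0774). Ngfr is also a marker of non-myelinating Schwann cells, whose marker sums are given above.

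Ntrk3, the TrkC receptor of neurotrophin-3, was at 17.8 ± 1.49 CPM in cdKO overload, 31.2 ± 13.7 CPM in cdKO sham, 15.0 ± 16.3 CPM in control overload and 35.5 ± 14.7 CPM in control sham, and did not pass (-0.75 ± 0.70 in cdKO and -1.44 ± 0.76 in control). For overload over sham, Gfra1, which binds GDNF, was at -1.94 ± 0.69 in cdKO (edgeR adjusted p = 0.0623). In control it was at -1.56 ± 0.67 (edgeR adjusted p = 0.0966), and it passed in neither genotype. Gfra1 was above 13.5 CPM in sham libraries only, so it was tested through the load in which it was high. Ret, its signalling partner, was at 77.5 ± 14.8 CPM in cdKO overload, 74.4 ± 27.3 CPM in cdKO sham, 54.9 ± 8.13 CPM in control overload and 40.3 ± 7.73 CPM in control sham. Ret was above control in cdKO without overlap under both loads, at 0.48 ± 0.28 under overload (edgeR adjusted p = 0.792) and 0.82 ± 0.31 in sham (unadjusted p = 0.0147, edgeR adjusted p = 0.999), and did not pass.

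**Figure D3:**
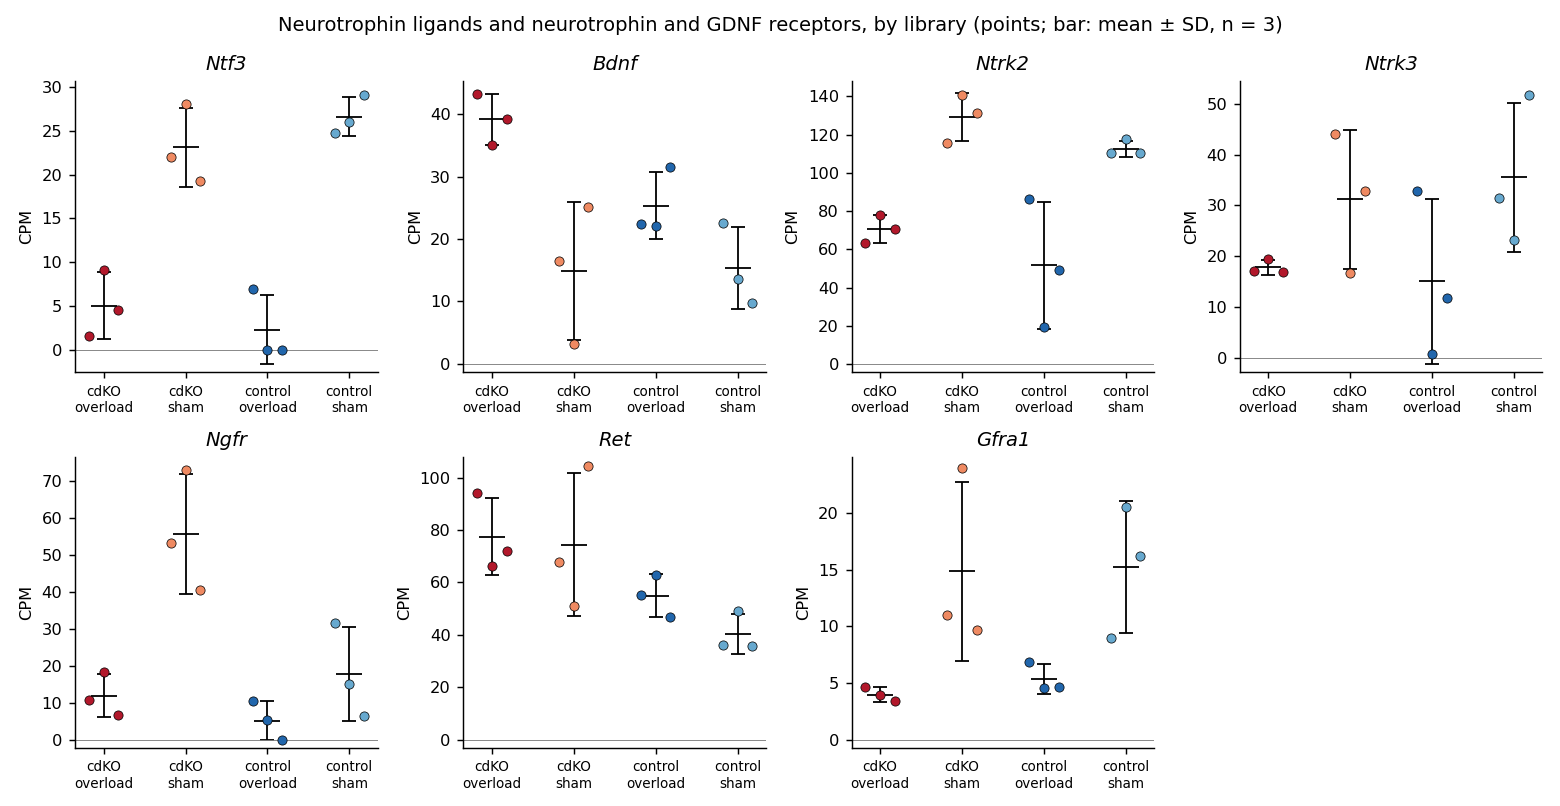
CPM of Ntf3 and Bdnf and of the receptor genes Ntrk2, Ntrk3, Ngfr, Ret and Gfra1 in each library (points), with the mean and SD of each group (bars, n = 3). Bdnf is at 35.1 CPM or above in the cdKO overload libraries and at most 25.1 CPM in the cdKO sham libraries, the reverse of Ntf3, and Ngfr is highest in the cdKO sham libraries.

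Of 11 genes of the HGF family, its receptors and the proteases and inhibitors that bear on HGF processing, 3 were tested and none passed in any comparison. For overload, 13% of all tested genes were called in cdKO and 21.7% in control. Met, the HGF receptor, was at -1.04 ± 0.87 on the log2 scale in cdKO and -1.22 ± 0.82 in control for overload over sham.

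Of 19 other FGF genes, which include intracellular family members, Fgf1 and Fgf18 were tested and neither passed in any comparison. Fgfr1, the main FGF receptor gene of fibroblasts, was at 335 ± 74.5 CPM in cdKO overload, 262 ± 24.3 CPM in cdKO sham, 287 ± 51.3 CPM in control overload and 287 ± 22.1 CPM in control sham. Its overload difference was 0.36 ± 0.23 in cdKO and 0.00 ± 0.24 in control, and that of Fgfr2 was -0.29 ± 0.76 in cdKO and -1.70 ± 0.76 in control (edgeR adjusted p = 0.111), with no call. Fgfbp3, a carrier protein of FGFs, fell by 2.11 in control (SE 0.74, edgeR adjusted p = 0.0422) and was at 0.09 ± 0.70 in cdKO. It was the only one called among 3 tested receptor and co-receptor genes in control, where 21.7% of all tested genes were called, 11% lower. In cdKO, where 13% were called, none of the 3 passed.

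A list of 16 genes that respond to growth factor signalling held feedback inhibitors, such as the sprouty and Spred genes, and the transcription factor genes Etv1, Etv4 and Etv5, which are targets of the signal and not inhibitors. Of these 15 were in the table and 12 were tested. For overload 0 rose, 2 fell in cdKO (Spry1 and Dusp5), where 6.68% of all tested genes fell, and 3 fell in control (Spry1, Il17rd and Errfi1), where 11% fell. Il17rd was above 13.5 CPM in sham libraries only, so it was tested through the group in which it was high. Fold changes above zero that did not pass were those of Spred1 (0.26 ± 0.25 in cdKO and 0.40 ± 0.25 in control, edgeR adjusted p = 0.272), Spry2 (0.19 ± 0.25 in cdKO) and Dusp6 (0.16 ± 0.29 in cdKO). The median log2 fold change of the 12 was -0.67 in cdKO and -0.35 in control, against -0.02 and -0.05 over all tested genes. Spry1, an inhibitor of the signal from FGF receptors to Erk, was at 36.3 ± 21.5 CPM in cdKO overload, 158 ± 78.8 CPM in cdKO sham, 36.6 ± 9.94 CPM in control overload and 118 ± 46.7 CPM in control sham. It fell by 2.13 on the log2 scale in cdKO (SE 0.45, edgeR adjusted p = 0.00575) and by 1.59 in control (SE 0.46, edgeR adjusted p = 0.0202). Dusp5, an Erk phosphatase, fell by 1.88 in cdKO (SE 0.51, edgeR adjusted p = 0.0152) and was at -0.25 ± 0.50 in control.

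Of 10 other neuregulins and EGF family ligands 3 were tested, and Ereg alone passed in the overload comparisons. Among all tested genes, 6.37% rose in cdKO and 10.6% in control. Ereg encodes epiregulin, a ligand of EGFR and ErbB4. It was above 13.5 CPM in overload libraries only, so it was tested through the group in which it was high. It had 20, 4 and 22 counts in cdKO overload, against 1, 0 and 5 in cdKO sham, and 16, 104 and 49 counts in control overload, against 0, 2 and 0 in control sham. The rise was 2.63 ± 0.85 on the log2 scale in cdKO (edgeR adjusted p = 0.049) and 5.13 ± 0.94 in control (edgeR adjusted p = 9.62e-04), where the sham total of 2 counts leaves the size uncertain, and the interaction did not pass (-2.50 ± 1.60, edgeR adjusted p = 0.94). Of the ErbB receptors only Egfr was tested, at -0.56 ± 0.24 in cdKO and -0.38 ± 0.23 in control with no call, and Erbb3, a receptor of neuregulin-1, held 0 to 8 counts per library. None of the 5 tested ErbB ligand sheddases passed, where 13% of all tested genes were called for overload in cdKO and 21.7% in control. No gene of the 9 ligand, receptor, feedback and sheddase lists passed in a genotype comparison or in the interaction.

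**Figure D4:**
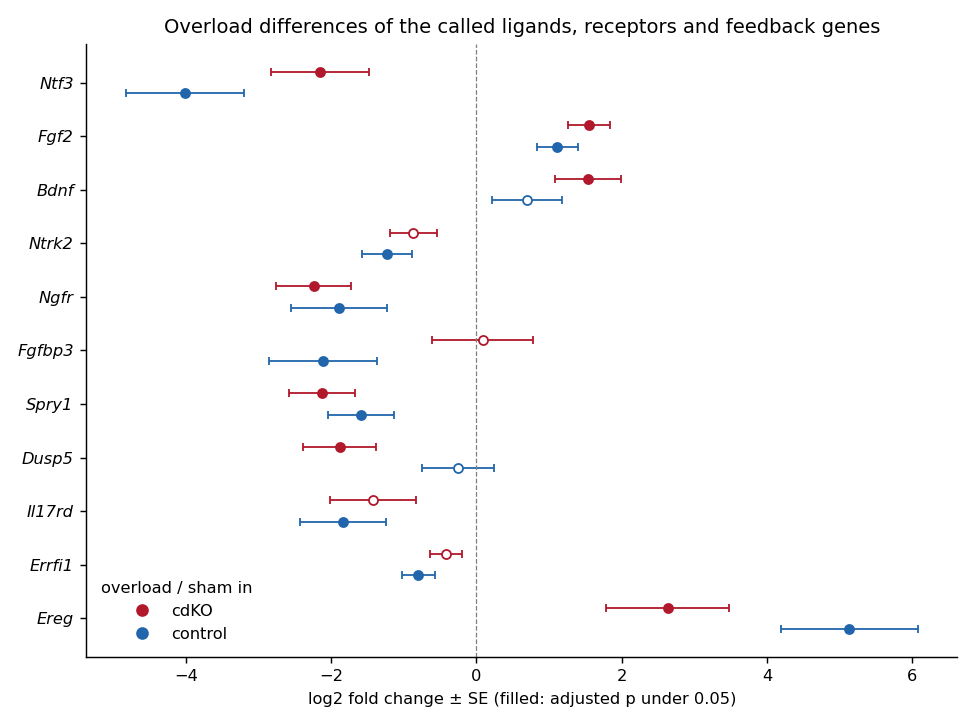
Log2 fold changes (± SE) of overload over sham in cdKO and in control for Ntf3, Fgf2 and the genes of the ligand, receptor, processing and feedback lists that passed in either (filled points: adjusted p under 0.05). Ereg lies with Fgf2 to the right in both genotypes, and Ngfr and Spry1 with Ntf3 to the left.

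Among 5472 genes with a mean of at least 20 CPM, those whose log2 CPM followed Ntf3 most closely over the 12 libraries were Ace (Pearson r = 0.989), Mill2 (0.988) and Timp2 (0.988). Those closest to Fgf2 were Grpel1 (0.972), Mak16 (0.955) and Lox (0.949), of which Lox, the lysyl oxidase that cross-links collagen, was at 683 CPM in cdKO overload, 46.4 CPM in cdKO sham, 1071 CPM in control overload and 60.3 CPM in control sham. The best matches of Fgf7 (Atxn7l3b, 0.843) and of Nrg1 (Ecpas, 0.838) were weaker. All libraries share the split by load, which sets most of these values for Ntf3 and Fgf2, so they describe likeness of profile over 12 libraries and no more.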

How the data were processed

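Each of the 12 libraries came from sorted mouse plantaris progenitors, 1000 cells per tube per the labels' protocols, and was prepared by a published low-input method that tags 3′ ends. The authors deposited raw counts per gene. The submitters' processing notes name the build GRCm38 and, with no role or order, DESeq2 1.26.0, featureCounts 2.0.1, HISAT2 2.2.1 and Trim Galore 0.6.6. The sources used here state no strand setting, annotation release or use of molecular identifiers, so reads of overlapping genes cannot be told apart by strand, and counting intervals cover counting error only.

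Libraries were grouped by their titles. Library totals ran from 336437 to 1564581 counts, and no pair of replicates agreed within sampling noise (chi-square over degrees of freedom, 3.22 to 19.2). edgeR 4.0.16 (R 4.3.3) fitted the deposited counts with filterByExpr, TMM factors and a robust quasi-likelihood model with 1 mean per group over all 12 libraries. Tests were two-sided and p-values were Benjamini-Hochberg adjusted over 8161 genes, with calls at an adjusted p under 0.05. Each fold change is overload over sham or cdKO over control, and the interaction is the cdKO minus the control overload effect. Members under the filter were compared by exact permutation of mean CPM over 400 arrangements.

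The members and gene lists were chosen with earlier results of these data known. Named list genes are up to 4 called members per list with the smallest p, and the members' direct receptors; likeness is Pearson's r of log2 CPM (prior count 2). Some genes taken by this rule are left unnamed, and Fgf1, Fgf18, Egfr, Spred1, Spry2, Dusp6 and marker genes are named outside it, after their values were seen. Gene models were matched by identifier to the GRCm38 annotation (54100 of 54100). Alternatives were DESeq2 1.42.0, limma voom (3.58.1) with quality weights, other size factors, no filter, a non-robust fit, a replicate block, only the groups compared, a Y-linked covariate, and libraries left out. The fit was tested on simulated counts. Some genes of these pathways are not reported here.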

Additional observations from a re-analysis of the deposited data

How the results depend on the processing

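In cdKO, 2 members were called for overload in the main fit and 1 to 2 with each library left out, the 1 being Fgf2 where Ntf3 was lost, and the count over all genes, 1065, ran from 423 to 1287 and was 702 with no filter. In control, 1 member (Ntf3) was called with the Y-linked covariate (1031 genes in all, against 1768). The number was also 1 with control overload replicate 2 and control sham replicate 3 left out (712 genes). Leaving out single libraries gave 2 to 3 members and 1060 to 2508 genes, the third being Fgf10. Over all 12 libraries Fgf10 reached 13.5 CPM in 2, both of control sham, so it was tested through the group in which it was high. DESeq2, voom, other size factors, the non-robust fit and the fit to only the groups compared called the same 2 members in both overload comparisons, and no setting called a member for genotype or the interaction. For the interaction, no filter gave 10 genes.

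Signs turned only for differences that did not pass. Nrg1 in cdKO against control under overload was 0.032 with voom, 0.11 with the replicate block and 0.0032 with only the groups compared, and -0.56 to 0.35 with single libraries left out. Nrg1 for overload in control was 0.046 with the Y-linked covariate, 0.39 with both libraries left out, and -0.59 to 0.37 with single ones. Fgf7 in cdKO against control in sham was 0.024 with no filter and -0.34 to 0.086 with single libraries left out, and for overload in cdKO -0.10 to 0.32. With single libraries left out, the Gdnf load difference ran from -0.29 to 0.87 CPM, its genotype difference from -0.49 to 0.69 CPM, and the Hgf genotype difference from -1.60 to 1.77 CPM, so depth limits what can be read from both. The Fgf10 load difference stayed at -10.4 to -8.16 CPM.

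Deviations from the group means correlated weakly between same-numbered libraries (-0.23 to 0.27). No differently numbered libraries were set beside them, so these values cannot decide whether a number marks a shared animal or day. The labels do not say. With the replicate block 2 members were called for overload in each genotype (1035 genes in cdKO, 1752 in control) and 0 in the other comparisons.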
